A study of Mus musculus with 13 samples.

Results

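Primitive endoderm is the first endoderm of the mouse embryo. It is set apart from the pluripotent epiblast inside the blastocyst, where FGF4 signalling through ERK and the transcription factor GATA6 favour primitive endoderm and NANOG favours epiblast. Its descendants, the visceral and parietal endoderm, line the yolk sac and lay down a thick basement membrane of laminin and type IV collagen. Mouse embryonic stem (ES) cells, which are derived from the epiblast, switch on the same genes when GATA6 or GATA4 is forced on, and ES cultures in serum can hold a small share of cells that express them.

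The 10 genes described here were taken by name from the processed gene tables, a list drawn up with earlier results of these data known. They were 10 of the 26797 genes listed for the replicate libraries and of the 49671 listed for the single libraries. The 5 transcription factors were Gata6, Gata4, Sox17, Sox7 and Foxa2. Dab2 encodes an endocytic adaptor, and Lama1, Lamb1, Col4a1 and Col4a2 encode chains of laminin and type IV collagen. Every gene was found in both tables, and all 10 passed the filter on low values in the replicate libraries.

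RNA was sequenced from mouse ES cells in 10 libraries. WT cells were AinV15, an ES cell line that carries a doxycycline transactivator in the ROSA26 locus. Dnmt1−/− cells were the D1-null strain, homozygous for the C allele, a null allele of the maintenance DNA methyltransferase gene Dnmt1. WT and Dnmt1−/− cells were untreated and had 3 replicate libraries each. Each genotype was thus 1 cell line, the strains are not stated to be isogenic, and nothing in the labels says that replicates came from separate cultures, so p-values measure only the spread between these libraries. A separate table held 4 single libraries, 1 each of WT, Dnmt1−/−, dCas9-OGA and dCas9-OGA-D242A. The last 2 were AinV15 cells induced with doxycycline to express a catalytically dead Cas9 fused to a bacterial O-GlcNAc hydrolase, or the same fusion with the D242A substitution as an inactive control, together with 4 sgRNAs against the promoters of IAP retrotransposons. All cells grew on gelatin in serum with leukemia inhibitory factor. The single WT and Dnmt1−/− libraries are not tied to any replicate.

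The replicate libraries held between 26846275 and 37112247 reads on genes, and the single libraries between 18693531 and 25097983. The genotype was checked on Dnmt1 itself. Its normalized signal was 308, 352 and 347 in WT and 73.6, 75.4 and 77.6 in Dnmt1−/− (log2 fold change −2.14), and it had 11408 counts in the single WT library against 1176 in the single Dnmt1−/− library. The cells expressed the pluripotency gene Nanog at a signal of 706 ± 23.0 in WT and 747 ± 16.8 in Dnmt1−/− (SD, n = 3 each), a difference that did not pass the test (log2 fold change 0.08, adjusted p = 0.169). Pou5f1, which encodes OCT4, was at 306 ± 10.5 and 272 ± 9.91 and fell by 0.17 on the log2 scale (adjusted p = 0.00359). Sox2 was measured in the single libraries and had between 540 and 811 cpm (counts scaled to library size). Of 18 further genes of extraembryonic endoderm, 15 passed the filter on low values in the replicate libraries, with mean WT signals from 0.697 (Ihh) to 423 (Apoe), and Ttr, Afp and Apoa1 did not. In bulk RNA such as this, a change in the number of endoderm-like cells and a change in the RNA of each cell cannot be told apart.

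The genes lie on 8 chromosomes of the mm10 (GRCm38) genome. Sox17 is at chr1:4490931-4497354 on the minus strand, Foxa2 at chr2:148042877-148046969 on the minus strand. Gata4, at chr14:63198922-63271692 on the minus strand, and Sox7, at chr14:63943673-63950732 on the plus strand, lie 672 kb apart. Dab2 is at chr15:6299788-6440712, Lama1 at chr17:67697259-67822647 and Lamb1 at chr12:31265234-31329644, all on the plus strand. Col4a1, at chr8:11198423-11312826 on the minus strand, and Col4a2, at chr8:11312805-11449287 on the plus strand, form a head-to-head pair whose start sites are 21 bases apart and whose first exons share 22 bases. RefSeq promoter windows on GRCm38.p6 were matched for 5 of the 10 genes, Dab2, Foxa2, Lamb1, Col4a1 and Col4a2. The 3 sequences below lie upstream of a start site, outside annotated exons. They show a CpG-poor window of a gene that rose in Dnmt1−/− cells (Dab2), a window of median CpG content of another such gene (Foxa2) and a more CpG-rich one of a gene that was not called (Lamb1). Dab2 and Foxa2 have further start sites with windows of 17, 13 and 20 CpG, so the sequence shown for each is only that of the most distal one. Capitals mark the motifs found.
Dab2, chr15:6299539-6299787, plus strand: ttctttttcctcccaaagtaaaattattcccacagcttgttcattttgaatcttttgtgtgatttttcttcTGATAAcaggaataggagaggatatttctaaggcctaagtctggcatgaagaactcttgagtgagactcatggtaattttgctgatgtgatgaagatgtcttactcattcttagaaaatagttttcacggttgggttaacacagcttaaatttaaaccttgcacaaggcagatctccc
Foxa2, chr2:148046970-148047219, minus strand: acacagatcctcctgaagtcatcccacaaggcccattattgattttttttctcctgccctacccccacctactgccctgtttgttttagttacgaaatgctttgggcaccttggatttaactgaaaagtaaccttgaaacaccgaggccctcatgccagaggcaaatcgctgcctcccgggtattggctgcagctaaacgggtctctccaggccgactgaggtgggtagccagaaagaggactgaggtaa
Lamb1, chr12:31265043-31265233, plus strand: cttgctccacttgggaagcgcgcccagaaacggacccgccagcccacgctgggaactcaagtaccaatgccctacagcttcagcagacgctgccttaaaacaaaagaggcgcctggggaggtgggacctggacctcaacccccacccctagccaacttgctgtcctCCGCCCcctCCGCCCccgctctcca

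Over the 250 bases before the start site, the Dab2 window held 2 CpG, the Foxa2 window 6, the Lamb1 window 14, the Col4a2 window 26 and the Col4a1 window 31. Across 32851 such windows the median was 6 CpG, with quartiles of 2 and 16. Thus both collagen windows were above the upper quartile. The motifs searched on both strands were AGATAA and TGATAA (bound by GATA factors), AACAAT (bound by SOX factors), the GC box GGGCGG and the TATA box TATAAA. The Dab2 window held TGATAA once, 179 bases before the start site, a motif found in 7.94% of all windows. The Lamb1 window held GGGCGG on the opposite strand 84 and 75 bases before the start site, as did 32.7% of windows at least once. The Foxa2 window shown held none of the 5 motifs. Of its other windows, that of the start site at 148045464 held the AGATAA motif, the TATA box and the GC box once each, and that at 148045948 held GGGCGG 2 times. The Col4a2 window held GGGCGG 2 times, and the Col4a1 window and the other Dab2 window held no motif. AGATAA was found in 9.99% of all windows, TATAAA in 12.4% and AACAAT, absent from the members' windows, in 9.42%. These matches are descriptions of sequence and not of binding.

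In the replicate libraries, 6 of the 10 genes rose in Dnmt1−/− cells, 1 fell and 3 were not called. Foxa2, Sox17, Sox7, Lama1, Dab2 and Gata4 were higher, Col4a2 was lower, and Gata6, Lamb1 and Col4a1 did not pass the test. The test was limma on log2(signal + 0.5) with Benjamini-Hochberg adjustment over 17297 genes and a threshold of 0.05. Fold changes of the lowest genes are understated on this scale. The lines differed in most of the transcriptome: 71.2% of the genes tested were called, 35.8% as higher and 35.4% as lower. At a fold change of at least 1.5, 5 members were called higher, beside 12.3% of all genes, and none lower, beside 18.7%. At a fold change of at least 2, 3 members (Foxa2, Sox17 and Sox7) were called higher, beside 3.67% of all genes, and none lower, beside 9.41%. The count of 3 lies at the limit: without the second Dnmt1−/− library it was 1 (Foxa2), and with a pseudocount of 2 it was 0. The median log2 fold change was 0.63 over the members and 0.01 over all genes tested. In terms of single libraries, all 3 Dnmt1−/− values lay above all 3 WT values for 6 members, beside 37.1% of genes, and below them for 1, beside 36.2%. For 7 of the 10 members, therefore, the groups did not overlap, against 73.3% of all genes tested.

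**Figure D1:**
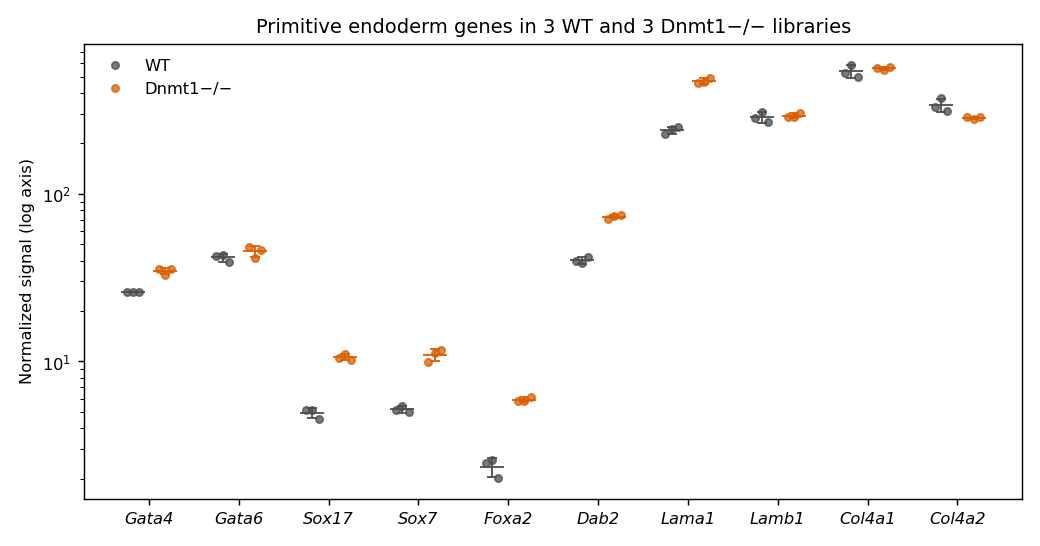
Normalized signal (log axis) of the 10 genes in each of the 3 WT (grey) and 3 Dnmt1−/− (orange) replicate libraries. Points are libraries, bars the mean and SD. The groups are separate for 7 genes and overlap for Gata6, Lamb1 and Col4a1.

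Of the GATA factor genes, Gata4 was called and Gata6 was not, and the difference between them was not tested. GATA6 is the zinc finger factor required for the primitive endoderm fate. Gata6, on chromosome 18, had a signal of 42.8, 43.3 and 39.1 in WT and of 48.4, 41.5 and 46.2 in Dnmt1−/−. The second Dnmt1−/− library lay inside the WT range, and the difference did not pass the test (log2 fold change 0.12, 95% interval −0.01 to 0.25, adjusted p = 0.0963). It passed only when that library was left out (0.18, adjusted p = 0.0264). GATA4 acts after GATA6 in the same lineage and is also a heart and gut factor. Gata4 was at 26.0, 25.8 and 26.1 in WT and 35.8, 32.9 and 35.4 in Dnmt1−/−. It rose 1.33-fold (log2 fold change 0.41, SE 0.061, adjusted p = 1.88e-06), and its groups did not overlap.

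The 3 other factors were at much lower signal and about doubled. SOX17 and SOX7 are related HMG-box factors of endoderm and endothelium. Sox17 was at 5.11, 5.12 and 4.56 in WT and 10.5, 11.1 and 10.2 in Dnmt1−/−, and rose 2.04-fold (log2 fold change 1.03, SE 0.095, adjusted p = 7.76e-10). Sox7 was at 5.14, 5.45 and 4.99 in WT and 9.96, 11.2 and 11.7 in Dnmt1−/−, and rose 2.01-fold (log2 fold change 1.01, SE 0.096, adjusted p = 1.37e-09). In both genes every Dnmt1−/− library was well above every WT library. FOXA2 is a forkhead factor of visceral and definitive endoderm. Foxa2, which had the lowest signal of the 10 genes before length was taken into account, was at 2.49, 2.57 and 2.01 in WT, from 99 reads or fewer per library. In Dnmt1−/− it was at 5.81, 5.82 and 6.15. It rose 2.26-fold (log2 fold change 1.18, SE 0.116, adjusted p = 2.75e-09), the highest value of the list. Of the exons of Sox17, 16.9% are shared with Gm37587, a transcript on the opposite strand that had 0 counts in each single library. Whether counting used strand is not given in the sources used here.

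DAB2 is the adaptor that links cargo receptors such as megalin to clathrin and is used to mark primitive endoderm. Dab2 was at 39.7, 38.7 and 42.1 in WT and at 71.2, 73.3 and 75.02 in Dnmt1−/−. The groups were far apart, and Dab2 rose 1.81-fold (log2 fold change 0.86, SE 0.054, adjusted p = 6.87e-13).

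The 4 basement membrane genes split. Laminin-111, the first laminin of the embryo, is a trimer of the α1, β1 and γ1 chains encoded by Lama1, Lamb1 and Lamc1. Lama1 was at 228, 243 and 249 in WT and at 461, 463 and 494 in Dnmt1−/−, with no overlap, and rose 1.97-fold (log2 fold change 0.98, SE 0.051, adjusted p = 1.90e-14). Lamb1 was at 282, 308 and 267 in WT and 289, 286 and 304 in Dnmt1−/−. The Dnmt1−/− values lay inside the WT range, and the difference did not pass the test (log2 fold change 0.04, 95% interval −0.07 to 0.15, adjusted p = 0.545). Lamc1, whose product is shared by most laminins, was at 674 ± 25.2 in WT and 661 ± 22.4 in Dnmt1−/− and was not called either (log2 fold change −0.03, adjusted p = 0.649). So of the 3 chains of laminin-111, the α1 chain alone was called.

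Type IV collagen of the yolk sac and most other basement membranes is a trimer with 2 α1 chains and 1 α2 chain. Col4a1 was at 528, 590 and 496 in WT and 563, 549 and 569 in Dnmt1−/−. The Dnmt1−/− values lay inside the WT range, and the difference did not pass the test (log2 fold change 0.06, 95% interval −0.06 to 0.18, adjusted p = 0.331). Without the second WT library, its highest, the difference passed (0.13, adjusted p = 0.0351). Its neighbour Col4a2 was at 331, 373 and 310 in WT and 286, 279 and 288 in Dnmt1−/−. Here the groups did not overlap, and Col4a2 fell by 0.24 on the log2 scale (SE 0.057, adjusted p = 0.000505).

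**Figure D2:**
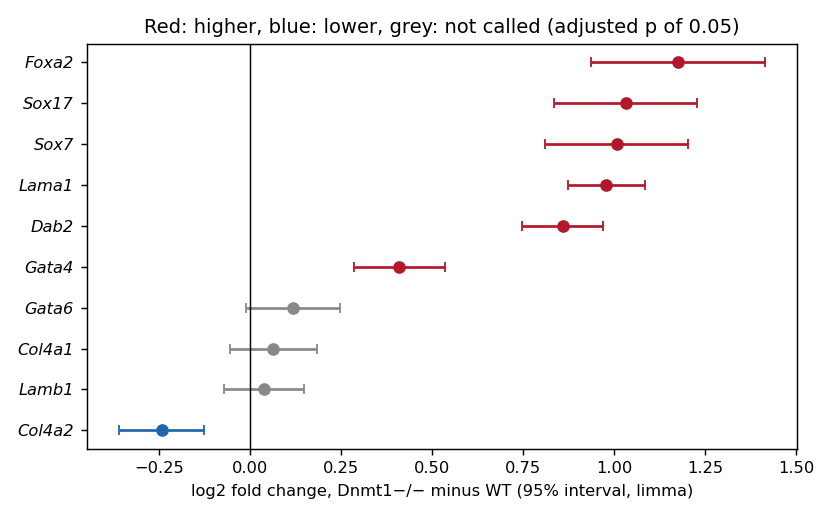
Difference between Dnmt1−/− and WT replicate libraries on the log2(signal + 0.5) scale for each gene, with the 95% interval of limma. Values run from −0.24 for Col4a2 to 1.18 for Foxa2, and the intervals of Gata6, Col4a1 and Lamb1 include 0.

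The fibroblast marker genes differed between the genotypes in the direction of Col4a2. All 9 of the 9 genes of that list (Col1a1, Col1a2, Col3a1, Thy1, Lum, Dcn, Pdgfrb, Postn and Fbn1) were lower in Dnmt1−/−, beside 35.4% of all genes, with a median log2 fold change of −2.33. Their summed signal was between 1152 and 1651 in the WT libraries, highest in the second, and between 275 and 307 in the Dnmt1−/− libraries. No gene of the list was at 0 on average, though Lum was near it at 0.525 in WT and 0.0581 in Dnmt1−/−. Fibroblasts also express type IV collagen and laminin genes, and the part of these transcripts in the Col4a1, Col4a2 and Lamb1 values was not tested. The 6 members that rose differed in the opposite direction to these markers, and the part of fibroblast transcripts in their values was not tested either.

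Levels of different genes can be set side by side only per length, here as signal per kb of annotated exon. In WT the order was Col4a1 (72.0 per kb), Col4a2 (51.0), Lamb1 (28.8), Lama1 (24.8), Gata4 (6.65), Gata6 (6.41), Dab2 (5.47), Sox7 (1.58), Sox17 (1.03) and Foxa2 (0.995). The ranges of Gata4 and Gata6 overlapped, as did those of Sox17 and Foxa2, while all other neighbours were separate. In Dnmt1−/− the order was Col4a1 (75.1 per kb), Lama1 (48.9), Col4a2 (43.0), Lamb1 (29.5), Dab2 (9.97), Gata4 (8.89), Gata6 (6.97), Sox7 (3.32), Foxa2 (2.50) and Sox17 (2.22), with no overlap between neighbours. Thus Lama1 passed above both Lamb1 and Col4a2, and Dab2 above both GATA genes. For scale, Nanog was at 315 per kb in WT and 333 per kb in Dnmt1−/−. All 10 genes were below it in both genotypes.

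The balance of chains within each trimer was measured as a ratio of signals per kb in each library, in which library scaling cancels. The ratio of Lama1 to Lamb1 was 0.827, 0.810 and 0.953 in WT and 1.64, 1.66 and 1.67 in Dnmt1−/−. The ratio of Lama1 to Lamc1 was 0.302, 0.302 and 0.309 in WT and 0.607, 0.612 and 0.615 in Dnmt1−/−. In both the Dnmt1−/− libraries were all higher. The ratio of Lamb1 to Lamc1 was 0.354 ± 0.026 in WT and 0.370 ± 0.0014 in Dnmt1−/− (SD, n = 3), and the groups overlapped. The ratio of Col4a1 to Col4a2 was 1.42, 1.40 and 1.42 in WT and 1.74, 1.74 and 1.75 in Dnmt1−/−. Its libraries agreed closely within each genotype even though Col4a1 itself varied among WT libraries, and the groups were separate. The exact two-sided permutation test gave p = 0.1 for each of the 3 separate ratios, the smallest value that 3 libraries against 3 allow, and p = 0.5 for Lamb1 to Lamc1.

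**Figure D3:**
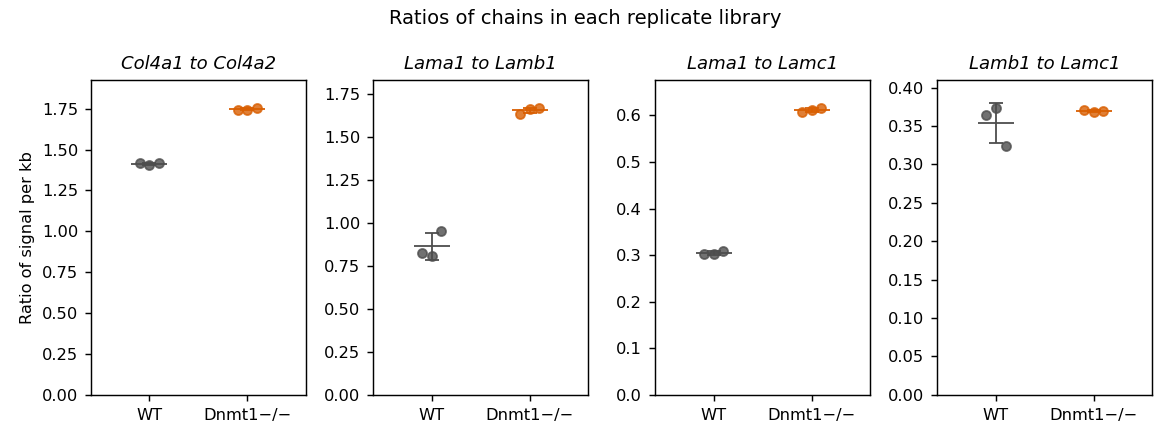
Ratio of signal per kb between chains of type IV collagen and of laminin in each replicate library. Points are libraries, bars the mean and SD. The ratios with Lama1 and the ratio of Col4a1 to Col4a2 are higher in all Dnmt1−/− libraries, and that of Lamb1 to Lamc1 overlaps.

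Further genes of extraembryonic endoderm were called in both directions. Of the 18 genes of the list, 15 were tested, 10 were higher in Dnmt1−/−, 3 lower and 2 not called, beside 35.8% of all genes called higher and 35.4% lower. Their median log2 fold change was 0.70. The largest rises were of Pth1r, the parathyroid hormone receptor of parietal endoderm, from a mean signal of 5.84 to 18.9 (log2 fold change 1.61, adjusted p = 4.90e-14), of the proteoglycan gene Srgn, from 20.8 to 56.4 (1.42, adjusted p = 1.88e-16), of the keratin gene Krt19, from 11.7 to 30.6 (1.37, adjusted p = 4.56e-12), and of Cubn, from 20.5 to 51.6 (1.31, adjusted p = 8.41e-15). Cubilin is an endocytic receptor of visceral endoderm. Its partners megalin (Lrp2) and amnionless (Amn) were also higher, at 0.58 and 0.70. Relative to the median of its chromosome, chromosome 11, Krt19 was at 1.02. The 3 genes called lower were Thbd, the thrombomodulin gene of parietal endoderm, from 88.6 to 14.7 (−2.54, adjusted p = 7.79e-19), the plasminogen activator gene Plat, from 15.9 to 7.72 (−0.99), and the apolipoprotein gene Apob, from 2.16 to 0.992 (−0.84). These 3 ran in the direction of the fibroblast markers, whose part in them was not tested.

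The remaining basement membrane genes were called in both directions. Of 19, 11 were higher, 5 lower and 3 not called, with a median log2 fold change of 0.21, beside 35.8% of all genes called higher and 35.4% lower. The largest rises were of P4hb (1.22) and P4ha2 (1.06), subunits of prolyl 4-hydroxylase, the lysyl hydroxylase gene Plod1 (1.04) and the laminin receptor subunit gene Itga3 (1.03). The other lysyl hydroxylase genes differed from Plod1, with Plod2 higher by 0.21 and Plod3 lower (−0.29). P4hb, P4ha2 and Itga3 lie on chromosome 11. The median log2 fold change of chromosome 11 was 0.35, while those of the other autosomes lay between −0.07 and 0.06. Relative to it P4hb was at 0.87, P4ha2 at 0.71 and Itga3 at 0.68, below Plod1 at 1.06 relative to its own chromosome. No member lies on chromosome 11, and the part of the shift in these values was not tested. The largest falls were of the laminin β2 gene Lamb2 (−0.96), the integrin β1 gene Itgb1 (−0.88), the perlecan gene Hspg2 (−0.51) and Serpinh1 (−0.46), which encodes the collagen chaperone HSP47. The nidogens that join laminin to collagen IV were both higher, Nid2 by 0.41 and Nid1 by 0.29.

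Of 21 paralogues of the members, 19 were tested, with 7 higher, 10 lower and 2 not called, beside 35.8% of all genes called higher and 35.4% lower. The higher share was thus near that of all genes. The median log2 fold change was −0.35. Col4a5 and Col4a6, which like Col4a1 and Col4a2 form a head-to-head pair of type IV collagen genes, fell by 2.67 and by 2.51, from mean signals of 69.2 and 19.0 in WT to 10.4 and 2.94 in Dnmt1−/−. The laminin genes Lama2 (−1.62) and Lama4 (−1.38), which are characteristic of mesenchymal and vascular basement membranes, fell as well. The largest rises were of the trophoblast and blood factor Gata3 (1.03), Dab1 (0.63), Lama3 (0.63) and Gata1 (0.61). The falls of Col4a5, Col4a6, Lama2 and Lama4 ran in the direction of the fibroblast markers above, and the part of such transcripts in them was not tested.

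The FGF and ERK genes act upstream of GATA6 in the embryo. Of 16 genes, 6 were higher, 7 lower and 3 not called, with a median log2 fold change of −0.03. These shares were near those of all genes, 35.8% higher and 35.4% lower. The largest rises were of the ETS factor gene Etv4 (1.29), the adaptor gene Grb2 (0.85), the kinase gene Map2k1 (0.62) and Spred1 (0.31), an inhibitor of the pathway. Etv4 and Grb2 lie on chromosome 11, and relative to its median they were at 0.94 and 0.51, the latter below Map2k1 at 0.56 relative to its own chromosome. The largest falls were of Mapk3, which encodes ERK1 (−0.76), the receptor genes Fgfr1 (−0.42) and Fgfr2 (−0.19), and Etv5 (−0.23). Fgf4 itself was not called (−0.04, adjusted p = 0.449).

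Markers of other cell states were read beside these results, in lists of 6 to 8 tested genes and against 35.8% of all genes called higher and 35.4% lower. Of the 8 pluripotency genes tested, none was higher, 5 were lower and 3 were not called, with a median of −0.15. Of the 7 genes of definitive endoderm and mesendoderm tested, 4 were higher, 2 lower and 1 not called, with a median of 0.61. Their summed signal was at most 12.3 in WT and 21.6 in Dnmt1−/−, and since Sox17 and Foxa2 are also expressed in definitive endoderm, these 2 members do not mark one lineage alone. Trophoblast genes had 4 higher and 2 lower among 6 tested, with a median of 0.63 and sums of at most 20.2 in WT and 27.6 in Dnmt1−/−. The medians of these 2 lists were near that of the members, 0.63, so a median rise of this size was not particular to primitive endoderm genes. Genes of the 2-cell-like state, mainly of the Zscan4 cluster, had 5 lower and 1 not called, with sums of 381 to 408 in WT and 147 to 171 in Dnmt1−/−. The part of these states in the member values was not tested.

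The single libraries gave the levels of the same genes under dCas9-OGA. With 1 library a condition there is no replicate check, no p-value is given, and the intervals, exact 95% ones, cover counting error only. Values are cpm after TMM scaling, ratios are on the log2(cpm + 0.5) scale, and a gene was compared where its counts summed to at least 100. In the order WT, Dnmt1−/−, dCas9-OGA and dCas9-OGA-D242A, Gata6 was at 8.96, 2.84, 5.72 and 2.09 cpm. Gata4 was at 12.7, 4.05, 6.73 and 5.43 cpm. Both were highest in WT.

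Sox17, in the same order, was at 5.61, 1.26, 2.18 and 1.05 cpm, again highest in WT. Sox7 was at 5.93, 2.79, 9.67 and 0.161 cpm. The last value rests on 4 counts, against 240 in dCas9-OGA. Foxa2 had 40, 9, 11 and 5 counts, or 1.61, 0.473, 0.443 and 0.201 cpm, below the minimum for every comparison, so no ratio is given. Dab2 was at 13.4, 4.94, 9.55 and 10.0 cpm.

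The matrix genes were measured far more deeply, with between 448 and 8003 counts a library. Lama1 was at 169, 111, 244 and 120 cpm in the same order and Lamb1 at 196, 170, 220 and 264 cpm. Lama1 was highest in dCas9-OGA, and Lamb1 in the inactive control. Col4a1 was at 323, 60.5, 118 and 92.4 cpm and Col4a2 at 156, 23.6, 57.5 and 47.2 cpm. The 2 collagen genes thus had the same order of libraries, with WT far above the other 3.

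**Figure D4:**
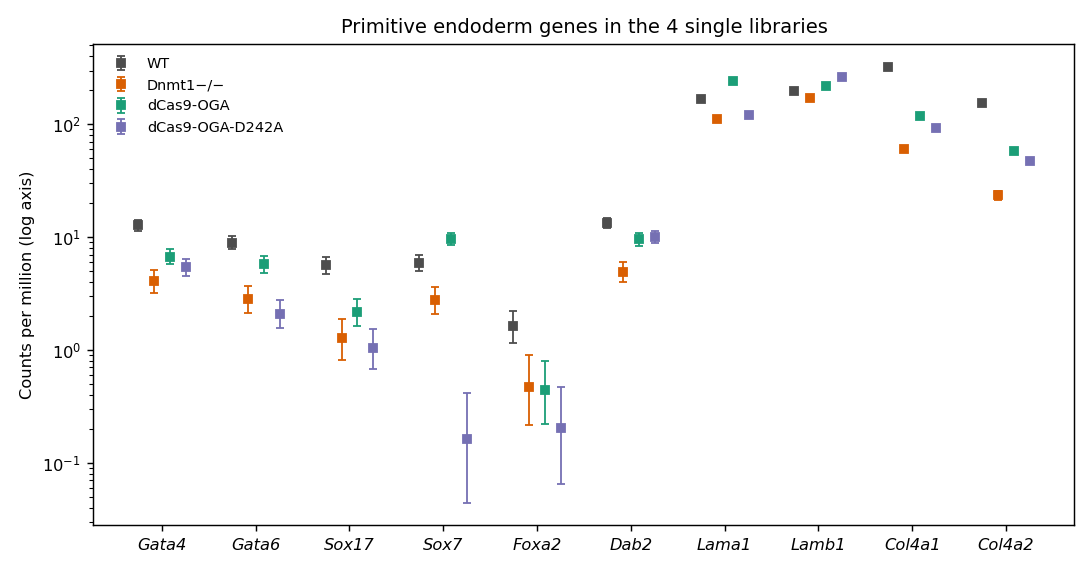
Level in cpm (log axis) of the 10 genes in the 4 single libraries, with exact Poisson 95% intervals that cover counting error only. WT is the highest library for 7 genes, dCas9-OGA for Sox7 and Lama1, and dCas9-OGA-D242A for Lamb1.

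The active and the inactive fusion were compared directly, as dCas9-OGA against dCas9-OGA-D242A. Of the 8 members compared, 3 reached a 2-fold excess in dCas9-OGA and none was 2-fold lower, where 4.88% of 12722 genes were 2-fold higher and 7.22% lower. Sox7 had a log2 ratio of 3.94, which ran from 2.43 to 5.23 with pseudocounts of 2 and 0.1 cpm. Without the pseudocount the ratio of its 240 to 4 counts was 60.1 after scaling (95% interval 4.53 to 7.80 on the log2 scale). Gata6 had 142 against 52 counts and a log2 ratio of 1.26 (interval without pseudocount 0.98 to 1.94). Lama1 had 6046 against 2990 counts and a log2 ratio of 1.01 (0.95 to 1.08), so it stood just at the 2-fold limit. Sox7 and Gata6 reached the minimum of 100 counts only through dCas9-OGA, the library in which they were high, and of the 6 members with that minimum in each library 1, Lama1, was 2-fold higher. The 5 others were within 2-fold, at 0.35 for Col4a1, 0.29 for Gata4, 0.28 for Col4a2, −0.07 for Dab2 and −0.27 for Lamb1. Shares of all genes, here and in the comparisons with WT, are for counts that sum to at least 100. No share was taken for that minimum in each library, so the member counts under it have no background. The median gene of chromosome 8, which holds the collagen pair, was at −0.45 in this comparison, and relative to it Col4a1 was at 0.80 and Col4a2 at 0.73. Relative to the median of chromosome 17 (0.13), Lama1 was at 0.89, under the 2-fold limit. The median log2 ratio was 0.32 over the members and 0.03 over all genes. Other lists moved in the same comparison. Of 9 pluripotency genes 4 were 2-fold higher in dCas9-OGA and none lower, with summed levels of 5509 against 3511 cpm. Among them Tbx3 was at 243 against 33.1 cpm and Nanog at 388 against 186 cpm. Of 9 further extraembryonic endoderm genes compared, 4 were 2-fold higher and 2 lower, one of the latter being Lrp2 at 21.1 against 58.6 cpm. Of 3 trophoblast genes compared, 2 were 2-fold lower, with sums over the list of 13.9 against 25.6 cpm. Those 2 reached the minimum only through dCas9-OGA-D242A, where they were high. Of the endoderm genes past 2-fold, Apoe and Lrp2 alone had 100 counts in each library, whereas all 9 pluripotency genes had. The difference between the 2 libraries was therefore not limited to primitive endoderm genes, and the part of these other states in the member values was not tested.

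Both induced lines were also set against the single WT library, which the 2 comparisons share. In dCas9-OGA none of the 9 members compared was 2-fold higher (14.0% of all genes were) and 3 were 2-fold lower (9.78% of all genes). These were Sox17 (log2 ratio −1.19), Col4a1 (−1.45) and Col4a2 (−1.43). Sox17 reached the minimum only through WT, and of the 8 members with it in each library 2 were 2-fold lower. Sox7 was at 0.66 and Lama1 at 0.52, both above WT but within 2-fold. In dCas9-OGA-D242A none of 9 was 2-fold higher (12.5% of all genes) and 6 were 2-fold lower (8.28% of all genes). They were Sox7 (−3.28), Sox17 (−1.98), Gata6 (−1.87), Col4a1 (−1.80), Col4a2 (−1.71) and Gata4 (−1.16). Sox7, Sox17 and Gata6 reached the minimum only through WT, where they were high, and of the 6 members with it in each library 3 were 2-fold lower. Of the 3 genes 2-fold higher in dCas9-OGA than in its inactive control, Sox7 and Lama1 had WT levels below those of dCas9-OGA. The WT level of Gata6 was above both. Each level is of 1 library, and Sox7 and Gata6 entered that comparison only through dCas9-OGA. Lama1 was under 2-fold in it relative to its chromosome.

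Against WT, the single Dnmt1−/− library did not show the pattern of the replicates. None of the 9 members compared was 2-fold higher (10.5% of all genes were), and 6 were 2-fold lower (6.89% of all genes), with a median log2 ratio of −1.50 over the members and −0.07 over all genes. The lowest were Col4a2 (−2.70) and Col4a1 (−2.41), followed by Sox17 (−1.79), Gata4 (−1.54), Gata6 (−1.50) and Dab2 (−1.35). Sox7 (−0.97), Lama1 (−0.61) and Lamb1 (−0.21) were lower by less than 2-fold. Gata4, Gata6, Sox17, Sox7 and Dab2 reached the minimum only through WT, and of the 4 members with it in each library 2, the collagen genes, were 2-fold lower. Sox17, Sox7, Dab2, Lama1 and Gata4, which rose in the replicates, were thus all lower in this library than in its WT counterpart. The ratio of Lama1 to Lamb1 per kb, 1.65 ± 0.017 in the Dnmt1−/− replicates, was 0.670 in the single Dnmt1−/− library and 0.885 in the single WT library. The ratio of Col4a1 to Col4a2 was higher in Dnmt1−/− here too, at 2.28 against 1.84. The labels give no difference in genotype or treatment between the replicate and the single libraries, while the notes name a different aligner for each set. The single WT library also held the highest sums of trophoblast markers (87.6 cpm, against 13.9 to 25.6 in the 3 others) and of 2-cell-like markers (15.5 cpm, against 0.282 to 1.05), whereas its fibroblast markers were at 65.6 cpm, within the range of 37.6 to 80.0 of the others. In the WT replicates the fibroblast sum was 1152 to 1651, the 2-cell-like sum 381 to 408 and the trophoblast sum at most 20.2. These are in signal, which totals 959084 to 964265 in those libraries. The single WT library was thus lower in the first 2 sums and higher in the third. The part of such cells in the member values, and in the difference between the sets, was not tested.

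**Figure D5:**
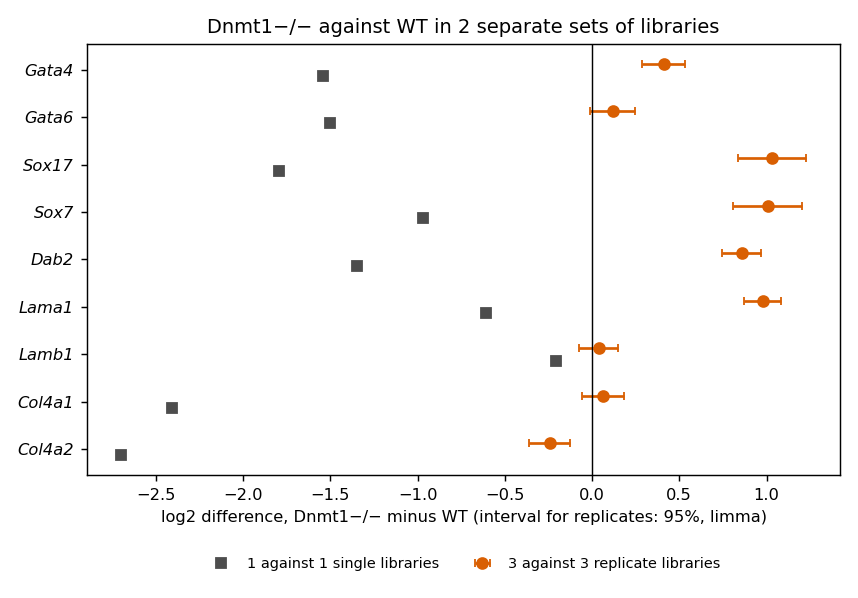
Difference between Dnmt1−/− and WT on the log2 scale for the 9 genes compared in both sets: orange, 3 against 3 replicate libraries with the 95% interval of limma, and grey squares, the single libraries, which have no replicate error. The squares lie below 0 for all 9 genes, from −0.21 to −2.70, and the replicate values above 0 for all but Col4a2.

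Over all 10 libraries, with each table centred on its own mean, the genes whose log2 levels followed those of Gata6 most closely among 12785 genes were Aamp (Pearson r = 0.993), Glis2 (0.982) and Smad7 (0.976). For Lama1 they were Slx4 (0.993), Hscb (0.987) and Rps6ka1 (0.987). These are descriptions over 10 points from 2 tables that were normalized separately. Gata6 ran only from 39.1 to 48.4 in the replicate libraries but from 2.09 to 8.96 cpm in the single ones. Its correlations therefore rest mostly on the 4 single libraries. The genes named are the top of 12785, and whether such values of r would arise by chance was not tested.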

How the data were processed

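RNA-seq of 10 libraries was used, and the ChIP-seq samples were not analysed here. Per the submitters' processing notes, reads were mapped to mm10 (HISAT2 2.1.0 and TopHat2 2.0.11 are named), and the study counted them on Ensembl release 87 genes with featureCounts (1.5.0). For the single libraries the authors deposited whole counts per gene. For the replicates the authors deposited a normalized signal, in which each read has a fixed worth set by the library's scaling. Column headings there disagree with the contents, and the third column was read as the value. All values (100%) came out as whole reads within 0.001, which gave the depths. Library totals ranged from 18693531 to 37112247.

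Genes passing edgeR's filterByExpr were tested with limma 3.58.1 (trend) on log2(signal + 0.5). edgeR 4.0.16 and DESeq2 1.42.0 on recovered reads were alternatives, as were other pseudocounts, no filter, TMM scaling, a replicate block, left-out libraries and subtraction of the chromosome median. Scripts were tested on simulated data. Single libraries were scaled with TMM factors and compared without a test. Positions and exon lengths came from GENCODE M21. The tables were normalized separately, so no fit joined them. Genes named were all members, the called genes with up to 4 largest rises and falls in 4 lists, Pou5f1, Sox2, Nanog and Dnmt1, and the 3 genes most like Gata6 and most like Lama1. The fibroblast list is spelled out whole, and genes of the further endoderm list that were not tested are named. Lrp2, Amn, Nid1, Nid2, Plod2, Plod3, Ihh, Apoe, Tbx3, Lamc1 and Fgf4 were added for their roles after values were seen. The members and lists were chosen with earlier results of these data known. Software was matplotlib 3.10.9, SciPy 1.17.1, NumPy 2.4.6 and pandas 2.3.3 under Python 3.11.15, and R 4.3.3.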

Additional observations from a re-analysis of the deposited data

Results flagged for a closer look

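For 5 of the primitive endoderm genes, the single Dnmt1−/− library lay below its WT counterpart whereas every Dnmt1−/− replicate library lay above every WT replicate. The log2 ratios in the single libraries were −1.54 for Gata4, −1.79 for Sox17, −0.97 for Sox7, −1.35 for Dab2 and −0.61 for Lama1. The log2 fold changes in the replicates were 0.41, 1.03, 1.01, 0.86 and 0.98 in the same order. The difference between the 2 sets of libraries was not tested, since the single libraries have no replicates and the tables were normalized separately. Dnmt1 itself was low in both sets of Dnmt1−/− libraries.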

How the results depend on the processing

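Under the 14 other settings tried for the replicates, Gata4, Sox17, Sox7, Foxa2, Dab2, Lama1 and Col4a2 kept their direction and their side of the threshold, with log2 fold changes of 0.38 to 0.45, 0.86 to 1.09, 0.85 to 1.07, 0.87 to 1.31, 0.83 to 0.89, 0.94 to 1.01 and −0.30 to −0.17. Lamb1 changed sign without WT replicate 3 (−0.0094, adjusted p = 0.893). Left-out libraries gave it a range of −0.0094 to 0.092, and it passed under no setting. Gata6 (0.07 to 0.18) and Col4a1 (0.01 to 0.13) each passed under 1 setting, without Dnmt1−/− replicate 2 and without WT replicate 2. The cause was not tested. Over all genes, calls numbered 12324, and 12252 with edgeR, 11404 with DESeq2, 13271 without the filter and 11723 to 12289 with a library left out. In the single libraries 19 values of single genes moved by more than counting error, mostly on subtraction of the chromosome median. In the comparison of the active with the inactive fusion, 2 members instead of 3 were 2-fold higher with that subtraction or a pseudocount of 2 cpm, and none of the planned settings moved a count of members past 2-fold in these libraries by more than 1.5 times. With a minimum of 100 counts in each library, chosen after seeing the data, the 2-fold counts were 1 instead of 3 higher for the active against the inactive fusion, 3 instead of 6 lower for the inactive fusion against WT, and 2 instead of 6 lower for Dnmt1−/− against WT, since fewer members were compared. No share of all genes was taken under that minimum. In the replicates, members called and at least 2-fold higher numbered 3. With a pseudocount of 2 they numbered 0, and with a library left out 1 to 3, lowest without Dnmt1−/− replicate 2.

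WT and Dnmt1−/− libraries share the numbers 1 to 3. With these as a replicate block, 12556 genes were called (6344 higher, 6212 lower) and 6 members were higher and 1 lower, as without the block. Deviations of same-numbered libraries correlated at 0.074, −0.016 and 0.065, so the numbers were not taken to pair the libraries, and not every library correlated best with its own number.

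Foxa2 in the single libraries and Sox7 in dCas9-OGA-D242A are limited by depth.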
